A study of Mus musculus with 6 samples.

Results

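Tyr, Tyrp1 and Dct are the 3 genes of the tyrosinase family, the enzymes that make melanin. They were taken by gene identifier from count files of 39179 genes, in which each of the 3 has 1 entry. Tyrosinase (Tyr) starts the pathway by oxidising tyrosine, dopachrome tautomerase (Dct) converts the intermediate dopachrome to its carboxylated indole, and tyrosinase-related protein (Tyrp1) acts late in the making of brown-black eumelanin and stabilises tyrosinase. All are membrane glycoproteins of the melanosome, the pigment organelle, and their genes are classic targets of MITF, the master transcription factor of melanocytes. In pigmented melanoma lines the family also supplies well-known differentiation antigens.

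RNA came from B16-F10, a pigmented mouse melanoma line of C57BL/6 origin, kept in culture, with an intact Sirpa gene (Sirpa-WT, 3 libraries) or with Sirpa knocked out (Sirpa-KO, 3 libraries). Sirpa encodes SIRPα, a receptor for CD47, and the study compared the baseline transcriptomes of the 2 lines. The labels name no drug, time point, edit, clone or passage, so neither the kind of knockout nor whether a group is 1 clone is known, and 1 label field gives a different cell line name (Pmel) with tumour as the source. No label says that replicates were cultured separately. The p-values therefore cover only the spread from library to library, which may be technical.

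Sirpa-KO replicate 1 stands apart. It held 29877270 counts, 82.6 times the mean of the other 5 libraries (338824 to 411695), and pseudogenes took 0.216% of its counts against 27.0% to 30.2% in the others. Results are therefore given with and without it, and its different make-up was not traced to a sample or a processing step. Values are in CPM, each count scaled to the same library total, where 1 count equals 2.43 to 2.95 CPM in the 5 shallow libraries. Sirpa itself lay at 8.68 to 29.1 CPM in Sirpa-WT, at 17.7 and 16.3 CPM in Sirpa-KO replicates 2 and 3 and at 53.0 CPM in replicate 1. The groups overlapped, so its counts do not check the labels, and every direction given here is that of the labelled groups. Of 8 other melanocyte genes, such as Pmel and Mlana, all had counts in both groups, with a summed level of 2513 to 2691 CPM in Sirpa-WT, 2084 to 2301 CPM in Sirpa-KO replicates 2 and 3 and 3681 CPM in replicate 1. Markers of other cell types were low. The 9 leukocyte genes summed to 5.02 to 32.6 CPM in every library, with Tyrobp, Cd3e and Fcgr3 at 0, and the 5 fibroblast genes to 2.43 to 14.5 CPM, with Dcn at 0. The 3 keratinocyte and epithelial genes summed to at most 2.95 CPM, and Cdh5 and Kdr of 3 endothelial genes had no count.

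The 3 promoters are shown because they share a sequence to which MITF is known to bind, and because the family's levels did not move together. Each window runs from 250 bases before to 50 bases after the RefSeq start (GRCm38.p6), written 5′ to 3′ on the gene's strand, with each CATGTG or its reverse complement CACATG in capitals. Tyr is at chr7:87493463-87493762 on the minus strand, Tyrp1 at chr4:80833963-80834262 on the plus strand and Dct at chr14:118052197-118052496 on the minus strand. The RefSeq start of Tyr and of Tyrp1 differs from the outer coordinate of the counted gene, so motif distances depend on the annotation.
Tyr: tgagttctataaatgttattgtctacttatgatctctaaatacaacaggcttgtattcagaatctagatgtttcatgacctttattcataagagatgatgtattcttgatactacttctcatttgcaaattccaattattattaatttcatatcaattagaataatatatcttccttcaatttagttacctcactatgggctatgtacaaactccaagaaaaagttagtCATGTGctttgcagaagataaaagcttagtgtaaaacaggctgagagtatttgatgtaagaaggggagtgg
Tyrp1: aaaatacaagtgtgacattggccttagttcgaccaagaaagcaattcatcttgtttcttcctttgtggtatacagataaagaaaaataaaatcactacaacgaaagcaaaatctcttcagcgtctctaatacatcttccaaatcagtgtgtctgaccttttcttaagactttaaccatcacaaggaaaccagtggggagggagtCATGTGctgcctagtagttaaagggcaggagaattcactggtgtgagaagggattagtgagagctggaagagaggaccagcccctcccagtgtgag
Dct: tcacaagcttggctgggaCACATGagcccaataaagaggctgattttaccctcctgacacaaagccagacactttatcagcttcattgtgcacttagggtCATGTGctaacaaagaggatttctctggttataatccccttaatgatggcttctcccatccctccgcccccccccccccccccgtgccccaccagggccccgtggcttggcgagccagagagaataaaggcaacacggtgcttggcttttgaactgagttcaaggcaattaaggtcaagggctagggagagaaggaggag
CATGTG begins 21 bases before the start in Tyr and 46 bases before it in Tyrp1. In Dct it begins 150 bases before the start, and its reverse complement 232 bases before it. Either orientation occurs in the promoters of 15.9% of 27025 genes. The related CACGTG is in none of the 3 windows and in those of 8.09% of genes. In all 3 members the motif sits inside the longer run GTCATGTGCT, the longest run holding the motif that all 3 share, which was searched on both strands after these sequences had been seen, contains CATGTG, and occurs in 0.155% of genes. The letters are a description and say nothing about binding in these cells.

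Dct, whose product channels dopachrome toward carboxylated indoles, was lower in each library labelled Sirpa-KO. The gene (ENSMUSG00000022129, GRCm38 chromosome 14, 118012792 to 118052246, minus strand) received 4090, 2974 and 2730 counts from the Sirpa-WT replicates 1 to 3, or 9935, 8650 and 7901 CPM. In Sirpa-KO replicates 1 to 3 it had 74576, 1550 and 1788 counts, or 2496, 4575 and 4863 CPM. The groups did not overlap, and Sirpa-KO replicate 1 was the lowest of all 6 libraries. Among 5397 tested genes, 10.2% had all 3 Sirpa-KO libraries below all 3 Sirpa-WT libraries, so that order alone is common. The means were 8829 ± 1029 CPM in Sirpa-WT (SD, n = 3) and 3978 ± 1292 CPM in Sirpa-KO (SD, n = 3). In such bulk samples, fewer expressing cells and less RNA per cell cannot be told apart.

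Tyr, the rate-limiting enzyme, was by far the scarcest member and differed in 1 library. The gene (ENSMUSG00000004651, chromosome 7, 87427405 to 87493411, minus strand) received 49, 50 and 44 counts from the Sirpa-WT libraries and 19758, 44 and 46 from the Sirpa-KO libraries. These are 119, 145 and 127 CPM against 661, 130 and 125 CPM. The shallow libraries of both groups overlapped, while Sirpa-KO replicate 1 lay 5.07 times above the Sirpa-WT mean of 130.6 ± 13.5 CPM (SD, n = 3).

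Tyrp1, the late eumelanin enzyme, was abundant in every library. The gene (ENSMUSG00000005994, chromosome 4, 80834123 to 80851719, plus strand) received 2744, 2148 and 1942 counts in the Sirpa-WT group and 280664, 2051 and 2202 in the other. That is 6665, 6248 and 5620 CPM against 9394, 6053 and 5989 CPM. The groups overlapped in the shallow libraries, and Sirpa-KO replicate 1 was the highest. None of the 3 genes shares its span with another annotated gene, so counting without strand could not mix them with a neighbour.

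Because pseudogenes took so large a share of the shallow libraries' counts, the members were also scaled to protein-coding counts alone (protein-coding CPM). On that scale Tyrp1 in Sirpa-KO replicate 1 (9544 protein-coding CPM) lay within the Sirpa-WT range (8285 to 9679). Tyr stayed outside, at 672 against 173 to 211 protein-coding CPM. Dct remained below, at 2536 protein-coding CPM in that library and 6446 and 6839 in Sirpa-KO replicates 2 and 3, against 11646 to 14427 in Sirpa-WT.

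**Figure D1:**
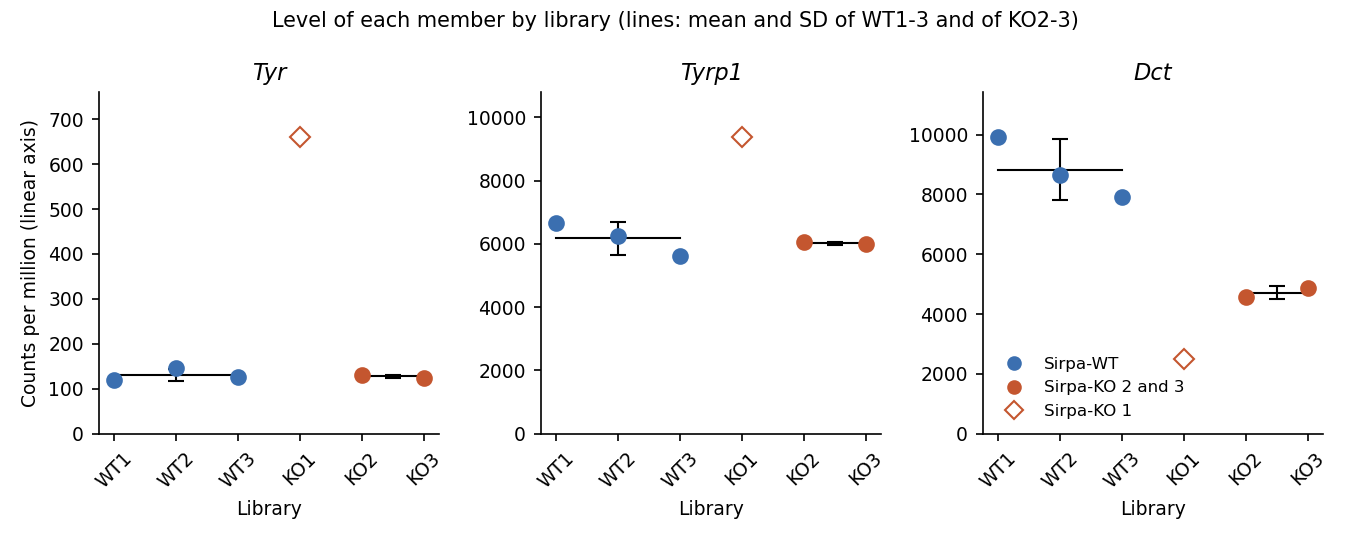
Level in CPM of Tyr, Tyrp1 and Dct in each of the 6 libraries, on linear axes from 0 that differ between panels. Lines and bars are the mean and SD of Sirpa-WT replicates 1 to 3 and of Sirpa-KO replicates 2 and 3. Dct is lower in all Sirpa-KO libraries, and Sirpa-KO replicate 1 (open diamond) lies above the other libraries for Tyr and Tyrp1 and below them for Dct.

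Per kilobase of exon the order of the members differed between libraries. In Sirpa-WT, Dct stood first (3494 to 4394 CPM per kilobase), then Tyrp1 (1987 to 2357), and Tyr last (36.0 to 44.0), with no overlap between them. In Sirpa-KO replicates 2 and 3, Dct (2023 and 2151 CPM per kilobase) and Tyrp1 (2140 and 2118) had overlapping levels. Tyrp1 stood narrowly first in replicate 2, and Dct in replicate 3. Sirpa-KO replicate 1 had Tyrp1 first (3322 CPM per kilobase), then Dct (1104) and last Tyr. Per kilobase, Tyrp1 stood 50.2 to 65.5 times above Tyr in the 5 shallow libraries and 16.6 times above it in Sirpa-KO replicate 1.

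The make-up of the family shows the same shift without any scaling between libraries. Dct gave 59.4% of the family's counts in Sirpa-WT replicate 1 (95% exact Clopper-Pearson interval 58.3 to 60.6%), 57.5% in replicate 2 (56.1 to 58.8%) and 57.9% in replicate 3 (56.5 to 59.3%). It gave 42.5% in Sirpa-KO replicate 2 (40.9 to 44.2%), 44.3% in replicate 3 (42.8 to 45.9%) and 19.9% in replicate 1 (19.76 to 20.02%). The intervals, which cover counting error only, did not overlap between the groups. The share of Tyrp1 mirrored that of Dct, since Tyr is a small part of the sum. It was 39.9% to 41.5% in Sirpa-WT, 54.6% and 56.3% in Sirpa-KO replicates 3 and 2 and 74.8% in replicate 1. In CPM, Tyrp1 itself was not higher in Sirpa-KO replicates 2 and 3 (mean 6021) than in Sirpa-WT (mean 6178). Tyr made up 0.712% to 1.21% of the family in the shallow libraries and 5.27% in Sirpa-KO replicate 1. Together the 3 genes took 1.37% to 1.67% of all counts in Sirpa-WT and 1.08% to 1.26% in Sirpa-KO.

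Ratios between members tested whether they changed unequally. The log2 ratio of Dct to Tyrp1 counts was 0.58, 0.47 and 0.49 in Sirpa-WT, against -1.91, -0.40 and -0.30 for Sirpa-KO replicates 1 to 3. Raw counts of Dct thus exceeded those of Tyrp1 throughout the Sirpa-WT libraries, while each Sirpa-KO library held more counts of Tyrp1. These counts are not scaled to exon length (2261 bases for Dct, 2828 for Tyrp1). Per kilobase, the ratio of Dct to Tyrp1 was 0.332, 0.945 and 1.016 for Sirpa-KO replicates 1 to 3. The order seen in raw counts was therefore not kept in replicate 3. The difference of the mean log2 count ratios of Dct to Tyrp1 was -1.38 over 6 libraries and -0.86 without Sirpa-KO replicate 1. The exact permutation p, 2-sided, was 0.1 and 0.2, the smallest that 3 against 3 and 3 against 2 libraries can give (0.15 and 0.3 adjusted over 3 pairs). For Dct to Tyr the log2 ratio was 5.89 to 6.38 in Sirpa-WT, 5.14 and 5.28 in Sirpa-KO replicates 2 and 3 and 1.92 in replicate 1. The groups again did not overlap, and the difference was -1.97 over 6 libraries and -0.87 over 5, with the same exact permutation p-values. Tyrp1 to Tyr overlapped between the groups, at 5.43 to 5.81 for Sirpa-WT against 3.83, 5.54 and 5.58 for Sirpa-KO. Its difference was -0.58 over 6 libraries (exact permutation p = 0.6) and -0.0035 without Sirpa-KO replicate 1 (exact permutation p = 1), which does not show that these ratios were equal.

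**Figure D2:**
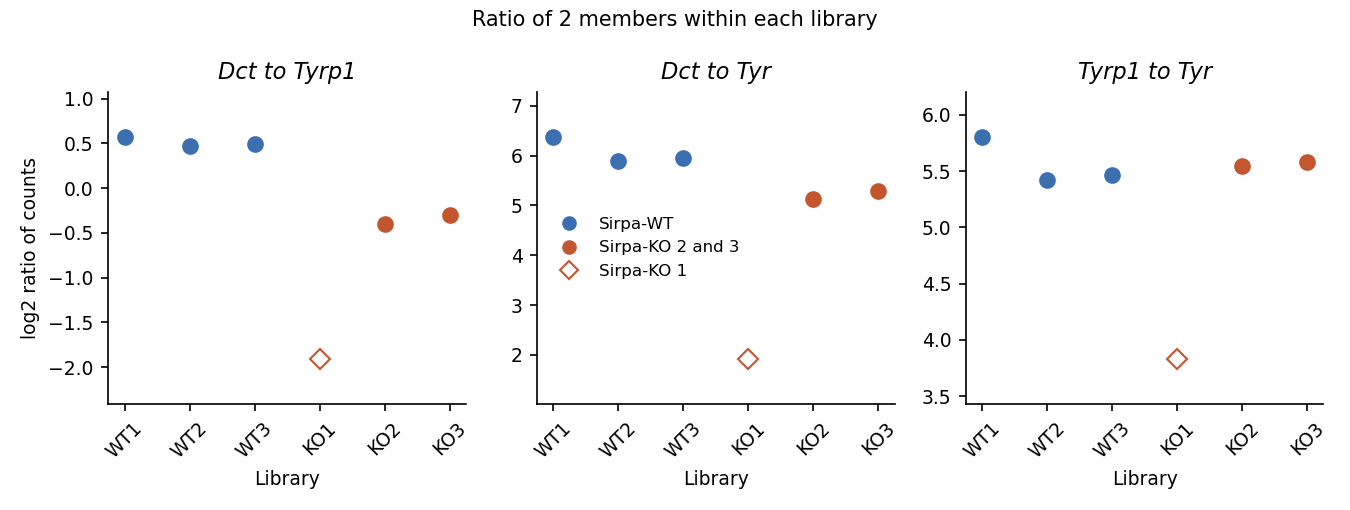
Log2 ratio of the counts of 2 members within each library, for Dct to Tyrp1, Dct to Tyr and Tyrp1 to Tyr. Both Dct ratios are lower in every Sirpa-KO library than in any Sirpa-WT library, and Sirpa-KO replicate 1 (open diamond) is the lowest point in each panel.

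The fit across all genes gave different values for the members with and without Sirpa-KO replicate 1. With 6 libraries, edgeR's quasi-likelihood test called 0% of 5397 genes at an adjusted p of 0.05, none of the 3 members among them, and 6.37% at an unadjusted p of 0.05. Dct came out at -1.29 ± 0.65 on the log2 fold change scale (SE, adjusted p = 0.574). Tyr stood at 1.04 ± 0.70 (adjusted p = 0.574) and Tyrp1 at 0.047 ± 0.60 (adjusted p = 0.963), and both were negative without Sirpa-KO replicate 1. The sign of Tyrp1 also changed with RLE scaling (-0.11) and in protein-coding genes only (-0.19). The biological coefficient of variation was 75.8%, and the median log2 fold change of all genes was 0.11. With limma voom, which called 23.8% of genes, Dct passed (-1.40 ± 0.32, adjusted p = 0.0224), and with DESeq2, which called 0.0185%, it did not (-1.37, adjusted p = 0.421).

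When Sirpa-KO replicate 1 was left out, Dct was the only 1 of the 3 members that fell. EdgeR called 5.84% of 5510 genes, 4.52% lower and 1.32% higher. This split turned with the scaling: library size alone gave 128 lower and 279 higher calls, and library sizes set to Tyrp1 counts gave 49 lower and 139 higher, with Dct called lower in both. Dct changed by -1.02 ± 0.08 on the log2 scale (SE, adjusted p = 6.34e-32 in edgeR's quasi-likelihood test), from 8829 ± 1029 CPM in Sirpa-WT (SD, n = 3) to 4719 ± 204 CPM in the other 2 Sirpa-KO libraries (SD, n = 2). It was lower in 2 of 2 of these libraries than in any Sirpa-WT library, which held for 11.8% of the genes tested. Only 70 of the 5510 genes (1.27%) had a lower fold change. Tyrp1 (-0.16 ± 0.08, edgeR adjusted p = 0.242) and Tyr (-0.15 ± 0.21, adjusted p = 0.755) did not pass, and 34.3% and 34.9% of genes lay below them. The Tyr value rests on 44 to 50 counts a library, which gives it the widest error of the 3. Summed, the 8 other melanocyte genes were also lower in Sirpa-KO replicates 2 and 3 (2084 to 2301 CPM) than in Sirpa-WT (2513 to 2691). Means of Pmel (939.7 to 735.6 CPM), Mitf (623.5 to 400.3 CPM), Mc1r, Gpr143 and Oca2 were lower in these Sirpa-KO libraries. Those of Mlana (645.9 to 682.5 CPM), Sox10 and Slc45a2 were higher. The part of these genes in the Dct result was not tested.

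Dct was called in each of the 17 alternatives to this 5-library fit, with log2 fold changes from -1.09 to -0.74. The 12 of these that kept all 5 libraries called 0.889% to 10.3% of genes lower. The 10.3% is DESeq2's 116 of 1130 genes given an adjusted p, a smaller base than in the other fits. The Dct value nearest 0 came from removing a trend across genes on the ratio of Sirpa-KO replicate 1 to the other libraries. With each library's size set to its Tyrp1 count, Dct stood at -0.86 ± 0.14 (SE, edgeR adjusted p = 5.45e-07), so it fell relative to its paralogue, and Tyr stood at 0.0086 ± 0.23 (adjusted p = 0.986).

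**Figure D3:**
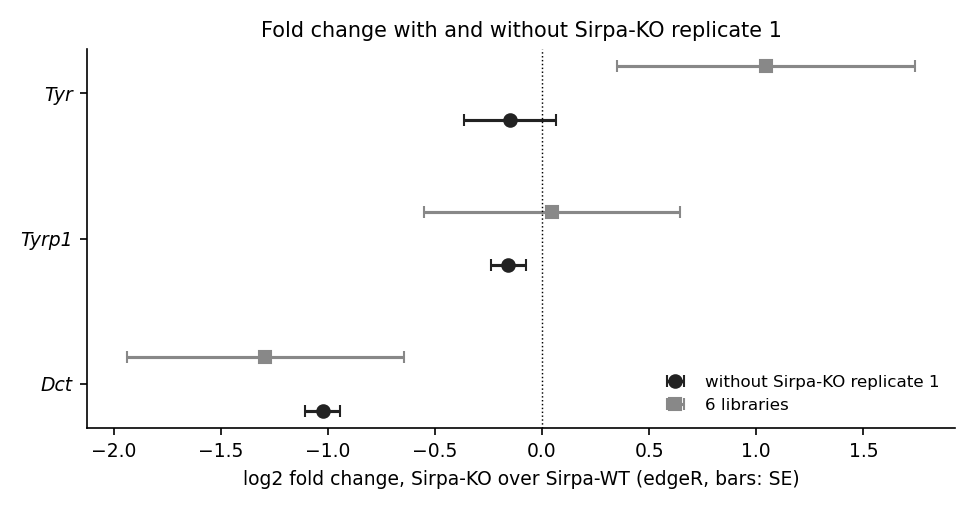
Log2 fold change of Sirpa-KO over Sirpa-WT for each member in edgeR's fit of 6 libraries (squares) and without Sirpa-KO replicate 1 (circles), with bars of 1 SE. Dct is negative in both fits, at -1.29 and -1.02, while Tyr changes from 1.04 to -0.15.

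Sirpa-KO replicate 1 was also set against the other 5 libraries gene by gene, as a description with no test. Its log2 ratio to the average of the remaining libraries was 2.35 for Tyr, above 97.2% of 4294 tested protein-coding genes, whose median was 0.96. For Tyrp1 it was 0.62, above 38.8% of them, and for Dct -1.46, above 5.78%. The members thus lay near both ends and in the middle of this distribution, and the part of library differences in each value was not tested.

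Other genes that melanin synthesis depends on were listed by role. Of 80 in 7 roles, 78 were in the files and 41 were tested without Sirpa-KO replicate 1, where edgeR called 5 lower and 0 higher, leaving 36 not called, and 23 of the 41 had a negative log2 fold change. Of all genes 4.52% were called lower, and no list was tested as a set. Adjusted p-values of the 5 in edgeR's test ran from 3.48e-07 (Slc24a5) to 0.0242 (Atox1). The count was 3 when Sirpa-KO replicate 2 was also left out, and with library size alone 4 were lower and Canx, a chaperone, was higher. With 6 libraries 0 of 41 passed, where 0% of all genes did.

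Among 5 tested regulators, Mitf fell from 624 ± 27.1 CPM (SD, n = 3) to 400.3 ± 39.1 CPM (SD, n = 2), or by -0.76 ± 0.13 on the log2 scale (SE). Its levels were 632, 646 and 593 CPM in Sirpa-WT and 449, 428 and 373 CPM in Sirpa-KO replicates 1 to 3. These do not overlap, an order shared by 10.2% of the genes tested over 6 libraries. The other 4, among them Sox10 (0.18 ± 0.23), a partner of MITF in melanocytes, did not pass. The list's median was -0.33 beside 0.013 over all genes.

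Of 6 tested transport genes, 2 fell. Slc24a5, a melanosomal ion exchanger, went from 814, 718 and 628 CPM in Sirpa-WT to 472 and 446 CPM in Sirpa-KO replicates 2 and 3, with 225 CPM in replicate 1 (-0.77 ± 0.13, SE). All Sirpa-KO libraries lay below all Sirpa-WT libraries, as for 10.2% of the genes tested over 6 libraries. Atox1, a copper chaperone, stood at -0.53 ± 0.16, and its call ended with DESeq2, library size alone, the trend removed, or without Sirpa-WT replicate 2, Sirpa-KO replicate 2 or Sirpa-KO replicate 3, where it ran from -0.63 to -0.25. The list's median was -0.13.

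Of 6 tested genes of melanosome structure 1 fell, the matrix gene Pmel (-0.48 ± 0.11, SE), and the list's median was -0.18. It had 1049, 861 and 909 CPM in Sirpa-WT, 691 and 781 CPM in Sirpa-KO replicates 2 and 3, and 1221 CPM in replicate 1, so its groups overlapped over 6 libraries. Without Sirpa-KO replicate 2 it was not called (-0.41). Of 13 tested trafficking genes Rab38, a GTPase that routes Tyr and Tyrp1 to melanosomes, fell (-0.63 ± 0.12), and the median was 0.11.

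None of 8 folding genes, 2 cAMP and receptor genes or 1 dopachrome-converting relative passed. The chaperone Calr stood at -0.050 ± 0.12, Mc1r, the melanocortin receptor, at -0.49 ± 0.21, and Mif, a cytokine with tautomerase activity on a dopachrome isomer, at -0.56 ± 0.22 (SE, edgeR adjusted p = 0.857, 0.154 and 0.101). Calr changed sign with library size alone. Mif was called in 3 of 16 alternatives, among them the trend removed (-0.78) and without Sirpa-WT replicate 1 (-0.78). The medians were 0.063 for folding and -0.21 for the cAMP and receptor pair.

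**Figure D4:**
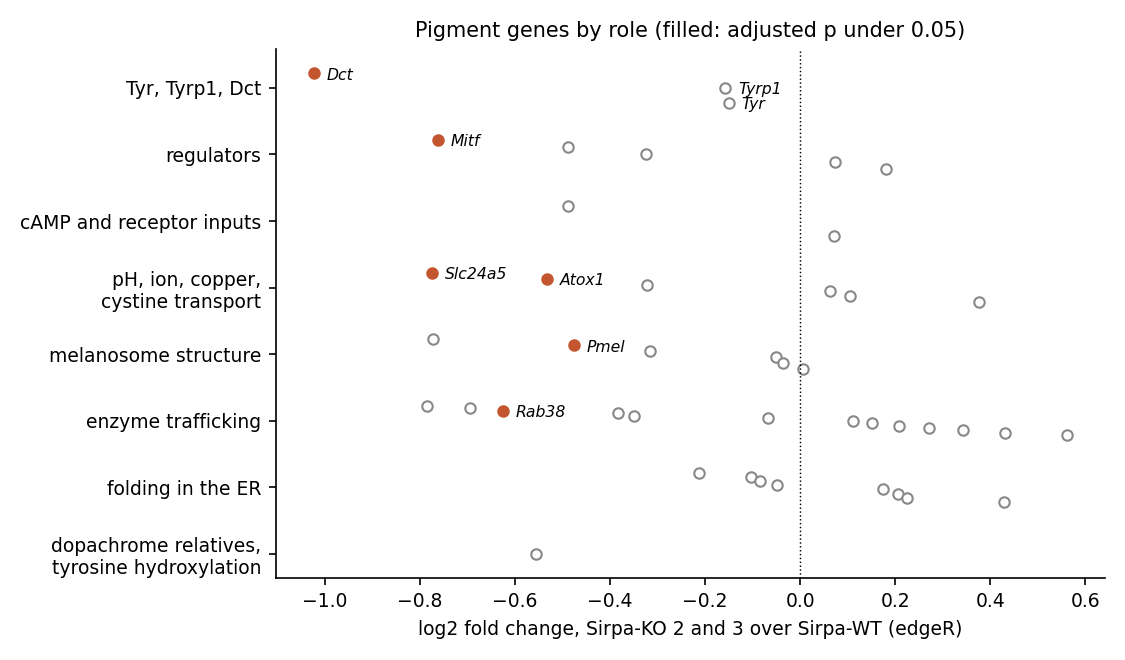
Log2 fold change of Sirpa-KO replicates 2 and 3 over Sirpa-WT for the 3 members (top row) and 41 tested pigment genes in 7 roles, 1 point per gene. Filled points passed edgeR's test. Dct (-1.02) lies furthest left, and 5 other genes passed, all lower.

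Pattern likeness of the members over libraries differed with and without Sirpa-KO replicate 1. Over 6 libraries, Pearson's r of log2 CPM was 0.94 between Tyr and Tyrp1, -0.79 between Tyr and Dct and -0.68 between Tyrp1 and Dct. All points share Sirpa-KO replicate 1, and without it the values were -0.15, 0.038 and 0.41. Over 6 libraries the median r with the genes compared was -0.81 for Tyr, -0.72 for Tyrp1 and 0.68 for Dct. The negative values with Dct were thus near the medians of Tyr and Tyrp1, but far from the positive median of Dct. An r of at least 0.95 was reached by 129 genes with Tyr, 42 with Tyrp1 and 40 with Dct. Among 1892 genes of at least 100 mean CPM, those most like Dct over 6 libraries were Hspa13 (r = 0.997), a chaperone of the HSP70 family, Ctsd (0.990), the lysosomal protease cathepsin D, and Slc24a5 (0.987). Hspa13 fell without Sirpa-KO replicate 1 (-0.84 ± 0.19, SE), except with the trend removed (-0.58, not called), and Ctsd fell as well (-0.70 ± 0.11). Both were picked for their likeness in these libraries, so their falls add no independent evidence. Most like Tyr were Serpinh1 (0.995), Rps2 and Laptm4a (both 0.994), each highest in Sirpa-KO replicate 1. Rps2 is a ribosomal protein gene with near-identical copies, so its counts are uncertain. Most like Tyrp1 were Myo5a (0.998), the motor that carries melanosomes, Tmem56 (0.991) and Sptbn1 (0.989).

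Over the 5 shallow libraries, other genes came first among 1834. Rnf40 (0.996), Dbr1 (0.994) and Pcyt1a (0.994) were most like Dct, of which Pcyt1a was called lower (-0.60 ± 0.16, SE). It too was picked for its likeness in the libraries tested, so this call is a description only. Its call ended with library size alone (-0.46), the trend removed (-0.35), or without Sirpa-KO replicate 2 (-0.57) or 3 (-0.66). Fyttd1 (0.974), Capza1 (0.973) and Zfp37 (0.959) were most like Tyr, and Itgav (0.990), Mki67 (0.989) and Ppp1r18 (0.977) most like Tyrp1. No gene was among the first 3 for the same member over both 6 and 5 libraries.

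Genes beside the members on their chromosomes were compared last. The 10 nearest tested genes of Dct reached 14.6 megabases, and 7 of 10 had a negative log2 fold change without Sirpa-KO replicate 1, but 0 were called, where edgeR called 5.84% of all genes. Their median was -0.061 beside 0.013 over all genes. Tgds, the nearest on the side of the Dct promoter, its lower end 0.099 megabases from that of Dct, stood at -0.54 ± 0.25 (SE, edgeR adjusted p = 0.179), on 41, 36 and 42 counts from Sirpa-WT libraries against 29 and 28 from Sirpa-KO replicates 2 and 3. Tpm3-rs7, the nearest on the other side, stood at -0.24 ± 0.11 (SE). The 8 protein-coding neighbours of Dct had a median log2 ratio of Sirpa-KO replicate 1 to the others of -0.52, below the 0.96 of all such genes. Their values ran widely, from -8.17 to 2.11, on both sides of that 0.96. The lowest was Tpm3-rs7, with 83 counts in Sirpa-KO replicate 1 against 289 to 458 in the shallow libraries, and the cause was not tested.

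Of the 10 nearest tested genes of Tyr, 2 fell, Rab38 at 1.003 megabases and Gm2546 (-0.53 ± 0.10), a processed pseudogene. Of all genes tested without Sirpa-KO replicate 1, edgeR called 4.52% lower. Rab38 had 806, 876 and 810 CPM in Sirpa-WT and 599 and 571 CPM in Sirpa-KO replicates 2 and 3, with 460 CPM in replicate 1. Rab38 was thus lower in each Sirpa-KO library, as were 10.2% of the genes tested over 6 libraries, while Tyr was not. The 6 protein-coding neighbours had a median ratio of Sirpa-KO replicate 1 to the others of -0.58, where Tyr had 2.35. The nearest on the other side, Abhd17c, stood at -0.35 ± 0.31 (SE). Of the 10 neighbours of Tyrp1, 8 were not annotated as protein-coding, and the nearest on each side were the pseudogenes Gm11410 (0.15 ± 0.17) and Gm11185 (-0.22 ± 0.28). Only ENSMUSG00000082697 (-0.54 ± 0.14) and the pseudogene Gm11263 (-0.33 ± 0.09) fell, again beside 4.52% of all genes. Counts of pseudogenes are uncertain, since reads of near-identical copies can be split, and Sirpa-KO replicate 1 held at most 31 counts for each of these 5.

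**Figure D5:**
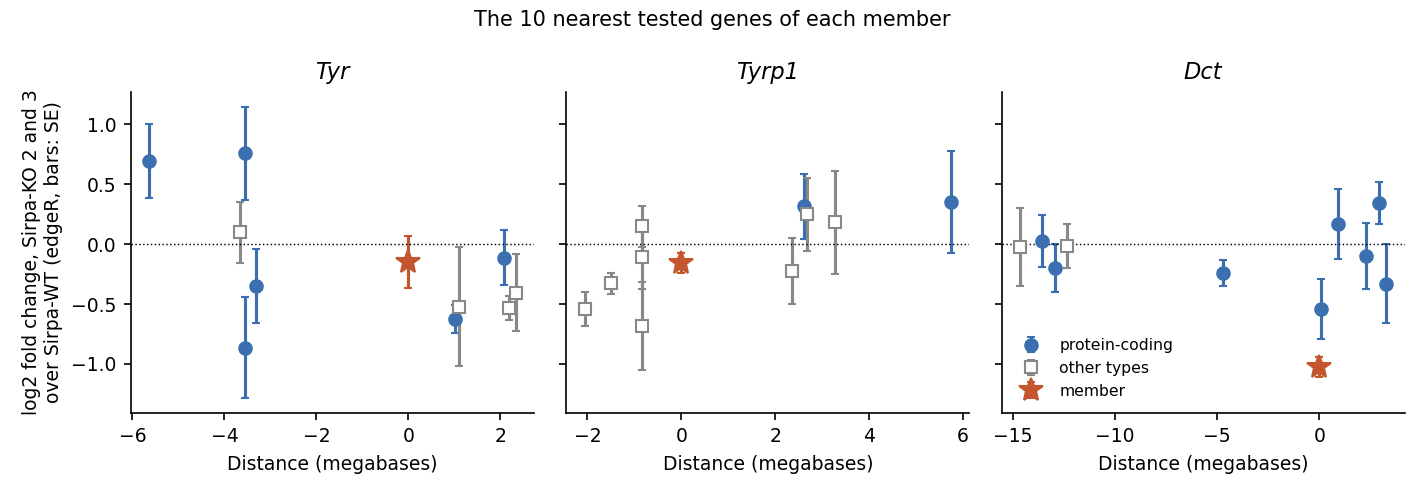
Log2 fold change of Sirpa-KO replicates 2 and 3 over Sirpa-WT for each member (star) and its 10 nearest tested genes, by distance between the lower coordinates of the 2 genes in megabases, with bars of 1 SE. Dct (-1.02) lies below all 10 of its neighbours, the lowest of which is Tgds (-0.54).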

How the data were processed

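Poly(A)-selected RNA was sequenced from 6 libraries, grouped and numbered by their titles. The deposited counts are raw fragments per gene. Per the file headers, the authors made them with featureCounts 1.5.1 over exons of Ensembl release 75 (GRCm38), in paired mode and with no strand option. The submitters' processing notes also name STAR 2.6.0 and Subread. Symbols (37607 genes) and gene types came from GENCODE mouse release 21 by identifier, coordinates from the files, and promoters from RefSeq (3 of 3 members matched).

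Genes were filtered with filterByExpr (minimum count 10), scaled by TMM and tested with edgeR 4.0.16 (glmQLFit, robust=TRUE; R 4.3.3), 2-sided. The p-values were adjusted over all tested genes by Benjamini-Hochberg, and 0.05 was the threshold. SE is the log2 fold change over the root of F. Alternatives were other scalings, filters, DESeq2 1.42.0, limma voom 3.58.1, robust=FALSE, a replicate block, protein-coding genes only, thinning of Sirpa-KO replicate 1, removal of a lowess trend (span 0.3) on that library's ratio to the others, leaving out each library and, chosen after seeing the data, scaling to Tyrp1 counts. The alternatives for named genes other than the members were also added after seeing the data. Likeness used a prior count of 2. Ratios were tested by exact permutation (scipy 1.17.1). The fits were tested on simulated data drawn from the profile of the shallow libraries. Neither the make-up of Sirpa-KO replicate 1 nor the 75.8% coefficient of variation of the 6-library fit was simulated.

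Named genes were the members, Sirpa, up to 3 called genes per role or its most abundant gene, the 3 most similar genes and the nearest neighbours. The members and lists were chosen with earlier results of these data known. Sox10, Canx, Gm2546, ENSMUSG00000082697 and Gm11263 were named after their values were seen. Within groups, counts of replicates differed beyond sampling noise (chi-square over its degrees of freedom at least 1.18), so all were kept as separate libraries.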

Additional observations from a re-analysis of the deposited data

How the results depend on the processing

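Over 6 libraries the Dct log2 fold change stayed negative in every alternative, passed with limma voom (-1.40), and ran from -1.52 to -1.02 with each library left out, the last without Sirpa-KO replicate 1, where it passed. Tyr ran from -0.15 to 1.31 with each library left out and was negative only without Sirpa-KO replicate 1. Tyrp1 (0.047) turned to -0.11 with RLE scaling, -0.15 with no filter, -0.20 with the filter at 1 CPM, -0.10 with DESeq2, -0.19 in protein-coding genes only and -0.14 with Sirpa-KO replicate 1 thinned, and ran from -0.16 to 0.078 with each library left out. The count of 0 genes called by edgeR (344 at an unadjusted p under 0.05) was 1 with DESeq2 and 1283 with limma voom, and between 0 and 322 with each library left out. Over 5 libraries the 322 called genes (73 of them higher, 249 lower) numbered 132 with DESeq2, 198 in protein-coding genes only and 104 with the trend removed, and 125 to 351 with each further library left out (125 without Sirpa-KO replicate 2, 127 without replicate 3, 214 without Sirpa-WT replicate 2). Scaling to Tyrp1 counts gave 188 calls. Library size alone gave 279 higher and 128 lower, and moved the median log2 fold change of all genes by 0.14. No filter gave 38 higher and 216 lower. Leaving out Sirpa-KO replicate 2 or 3 leaves 1 Sirpa-KO library, assumed to vary like the others. Scaled to Tyrp1 counts, Tyr turned from -0.15 to 0.0086. The Tyrp1 to Tyr difference of -0.0035 ran from -0.074 to 0.12 with each library left out. Calr turned positive with library size alone (0.088), with the replicate block (0.093) and without Sirpa-WT replicate 1 (0.097) or Sirpa-KO replicate 2 (0.069), within a range of -0.22 to 0.097 with each library left out. For all of these the cause was not tested.

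Whether replicate numbers pair the libraries could not be decided. Correlations of deviations between same-numbered libraries were 0.024, -0.042 and 0.059 over 6 libraries. There Sirpa-KO replicate 1 pulls its group mean, and Sirpa-KO replicates 2 and 3 gave near-equal values against each Sirpa-WT library. Without replicate 1, the deviations of those 2 libraries are equal and opposite by construction. With the replicate block Dct was -1.35 over 6 libraries and -0.93 over 5 (316 genes called), the Dct to Tyrp1 difference over pairs 2 and 3 was -0.83, and the Tyrp1 to Tyr difference turned to 0.12. The block also called Mif lower (-0.77, edgeR adjusted p = 0.0188), and 7 in place of 5 genes of the role lists. Tyr was not assigned an adjusted p by DESeq2 over 5 libraries. Depth limits Tyr to 44 to 50 counts in each shallow library.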
